A study of Mus musculus with 16 samples.

Results

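The genes described here carry ions, bicarbonate, lactate and amino acids across the retinal pigment epithelium (RPE), the pigmented cell layer between the photoreceptors and the choroid. The 10 genes were Best1, Clcn2, Slc12a2, Kcnj13, Slc4a2, Slc4a5, Slc16a1, Slc16a8, Slc6a20a and Trpm3, chosen by name from what they are known to do. Each was read from its single-symbol transcript cluster, the unit of the array, and each had 1 such cluster, so that 10 of 10 were measured among 19938 genes in all. Expression was measured in the neurosensory retina (NSR) and in the isolated RPE of 8 mice, all males of the albino strain Balb/cJ at 10 weeks of age. Of these mice, 4 received cool white fluorescent light of 10000 lux for 18 hours and were killed 4 hours after its end, and 4 unexposed controls stayed on a 12-hour cycle of light and dark. Both tissues of each mouse had an array of their own, which gave 4 groups of 4 arrays: NSR control, NSR light, RPE control and RPE light. Values are the log2 expression values that the authors deposited, so that a difference of 1 is a doubling. The brightness of a cluster also depends on its probes, and for this reason levels were compared between samples and never between genes.

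The RPE moves fluid, chloride and bicarbonate from the retinal side towards the choroid and takes up the lactate that photoreceptors release. Its polarity rests on different transporters in the membrane that faces the photoreceptors and in the one that faces the choroid. Chloride enters through a sodium, potassium and chloride cotransporter (Slc12a2) and leaves through chloride channels such as Clcn2 and, as a regulated channel, bestrophin (Best1). Kcnj13 encodes an inward rectifier potassium channel of the membrane facing the photoreceptors. Slc4a2 is a chloride and bicarbonate exchanger and Slc4a5 a sodium and bicarbonate cotransporter. The monocarboxylate transporters MCT1 (Slc16a1) and MCT3 (Slc16a8) pass lactate together with a proton. Slc6a20a carries proline and related imino acids with sodium, and Trpm3 is a cation channel whose gene holds the microRNA gene Mir204 within an intron.

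The mature microRNAs of the Trpm3 and Trpm1 genes are shown because the Mir204 cluster had a large response to light and lies in a gene described here. The sequences come from RefSeq (GRCm38.p6), run from 5′ to 3′, and carry the seed (bases 2 to 8) in capitals. miR-204-5p lies at chr19:22750610-22750631 on the plus strand inside Trpm3, and miR-211-5p at chr7:64205831-64205852 on the plus strand inside Trpm1. Both 5p arms have the same seed, and the 3p arm of Mir204 has another.
miR-204-5p: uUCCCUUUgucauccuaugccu
miR-211-5p: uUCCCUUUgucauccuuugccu
miR-204-3p: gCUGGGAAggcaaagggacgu

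Promoters were searched because MITF and OTX2, transcription factors of the RPE with known targets among its genes, are measured on the same arrays. The windows ran from 250 bases before to 50 bases after the RefSeq start (GRCm38.p6), and the table held 11 windows for 9 of the 10 genes. On both strands, the E-box letters CACGTG as well as CATGTG, whose other strand reads CACATG, were looked for, since MITF is known to bind them. The letters GGATTA, whose other strand reads TAATCC, are known for OTX2 and were searched as well. Capitals mark each match. No motif overlapped another in these windows. Kcnj13 held CATGTG on the other strand, Slc16a1 held CACGTG, which reads the same on both strands, and Best1 held GGATTA on the other strand. The other windows, those of Clcn2, Slc4a2, Slc4a5, Slc16a8, Slc6a20a and Trpm3, held none of these letters. Among all 32851 windows, 7.15% held CACGTG, 14.2% held CATGTG, 7.06% held GGATTA and 26.2% held at least 1 of the 3, so that 3 of 11 windows is near the background. The 3 windows with a match are Kcnj13 at chr1:87394680-87394979 (minus strand), Slc16a1 at chr3:104638414-104638713 (plus strand) and Best1 at chr19:10001584-10001883 (minus strand).
Kcnj13: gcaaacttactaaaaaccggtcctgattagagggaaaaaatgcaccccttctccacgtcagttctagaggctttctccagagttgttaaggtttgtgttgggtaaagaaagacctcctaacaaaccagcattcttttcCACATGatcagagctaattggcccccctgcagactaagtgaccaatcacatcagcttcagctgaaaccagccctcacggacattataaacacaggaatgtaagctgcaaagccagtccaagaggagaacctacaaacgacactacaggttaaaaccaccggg
Slc16a1: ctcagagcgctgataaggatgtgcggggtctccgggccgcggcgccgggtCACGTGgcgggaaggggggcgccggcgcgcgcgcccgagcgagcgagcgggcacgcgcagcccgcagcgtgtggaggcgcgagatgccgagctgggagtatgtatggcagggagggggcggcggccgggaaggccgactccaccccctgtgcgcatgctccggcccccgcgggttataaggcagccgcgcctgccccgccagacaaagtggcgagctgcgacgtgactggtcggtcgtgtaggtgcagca
Best1: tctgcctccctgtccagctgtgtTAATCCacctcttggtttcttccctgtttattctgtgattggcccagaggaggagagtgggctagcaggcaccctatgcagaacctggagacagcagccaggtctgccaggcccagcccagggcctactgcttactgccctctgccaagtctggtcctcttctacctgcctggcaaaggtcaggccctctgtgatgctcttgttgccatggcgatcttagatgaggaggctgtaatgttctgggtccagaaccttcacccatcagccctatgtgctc

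Markers of the labelled tissues were measured first. All 20 measured RPE markers were higher in control RPE than in control NSR, and all 14 measured rod markers lower. In control RPE the median RPE marker ranged from 11.79 to 12.01, and in control NSR from 6.29 to 6.80. Rod signal was present in the RPE arrays too, with a median rod marker of 7.84 to 8.38 without and 7.70 to 8.49 with light, against 12.06 to 12.10 in control NSR. Markers of some other cells of the back of the eye were higher in control RPE than in control NSR as well. Of 9 fibroblast and pericyte markers 8 were higher and 1 lower (summed linear level 3206 to 4824 against 1287 to 1353), and of 10 microglia and macrophage markers 8 were higher and 0 lower (2447 to 2940 against 670 to 700). Of 12 choroidal melanocyte markers 11 were higher and 1 lower (18611 to 20148 against 1627 to 1763). Some of these are also on the RPE list, so this excess is not separate from that of the RPE markers. Of 10 endothelial markers 4 were higher and 4 lower, with a lower summed linear level in control RPE (815 to 1241 against 1582 to 1679). The part of these cells in the tissue gaps of the 10 genes was not tested. Single arrays differed further. Cryaa, a lens crystallin, reached 9.14 in RPE control 2, the rest of that group lying at 7.06 to 7.07, and Krt12, a keratin of the cornea, was at 10.95 in RPE light 2 and between 6.65 and 6.86 in the other light-exposed RPE arrays. With RPE light 1, whose median rod marker of 8.49 was the highest of its group, these arrays were left out together as a check of each RPE result. RPE light 3 and RPE light 4 then remained of the light-exposed RPE arrays. RPE control 1, whose median rod marker of 8.38 was the highest of the control RPE arrays, was kept in that check. In such bulk samples fewer cells of a type and less RNA per cell cannot be told apart. The brightness of the light and the altered schedule cannot be told apart, and the labels used here name no batch.

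The first comparison asked how far these genes mark the RPE against the retina in unexposed mice. In control RPE 9 of the 10 genes were higher than in control NSR, and Best1 was not called. A gene was called at an adjusted p under 0.05 in limma, with Benjamini-Hochberg adjustment over all 19938 genes, and 30.8% of all genes were called higher in RPE. The median log2 difference of the 10 genes was 2.60, against 0.04 over all genes tested. The median over all genes moved from 0.04 to 0.18 or 0.15 when arrays were centred or quantile normalized over all transcript clusters, and the share higher among all called genes from 56% to 72.2% or 66.4%. All 9 calls held under both.

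Slc6a20a, the imino acid carrier, had the widest gap of the 10, at 34.5-fold (log2 5.11, SE 0.10). It stood at 11.23, 11.13, 11.18 and 11.21 in RPE control 1 to 4 and at 6.22, 6.10, 6.17 and 5.83 in NSR control 1 to 4. The bicarbonate cotransporter gene Slc4a5 was 20.8-fold higher in control RPE, at 11.14 ± 0.06 against 6.76 ± 0.21 (SD, n = 4). Kcnj13, the potassium channel gene, was 19.2-fold higher, at 12.74 ± 0.03 against 8.48 ± 0.15 (SD, n = 4). These 3 genes ranked 42nd, 93rd and 98th among all genes by their excess in control RPE.

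Slc4a2, the chloride and bicarbonate exchanger, and Slc16a8, which encodes MCT3, were 8.55-fold and 8.06-fold higher in control RPE. Slc16a8 measured 9.37, 9.54, 9.32 and 9.72 on control RPE arrays and 6.58, 6.35, 6.39 and 6.60 on control NSR arrays. The remaining called genes had smaller gaps. Slc16a1, which encodes MCT1, was 4.19-fold higher in control RPE (11.53 ± 0.10 against 9.46 ± 0.12, SD, n = 4). Trpm3 was 4.57-fold, the cotransporter gene Slc12a2 3.69-fold and the chloride channel gene Clcn2 3.38-fold higher. For 10 of the 10 genes, Best1 included, the lowest control RPE array lay above the highest control NSR array, as it did for 29.5% of all genes.

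Best1 is known for its expression in the RPE, but its cluster was not called higher there. It measured 5.67, 5.71, 5.75 and 5.97 on control RPE arrays and 5.56, 5.66, 5.67 and 5.56 on control NSR arrays. The log2 difference was 0.16 with a 95% interval from -0.01 to 0.34 (limma adjusted p = 0.108). The RPE arrays were higher without overlap, though the lowest of them equalled the highest NSR array at the precision printed. Centring or quantile normalization over all clusters gave 0.31 in both cases and called it (adjusted p = 0.00334 and 0.00247). The mean in control NSR, 5.61, was below 5.63, the value under which the dimmest 25% of genes lay, so that how far this cluster stood above background is unknown, in the light comparisons too.

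**Figure D1:**
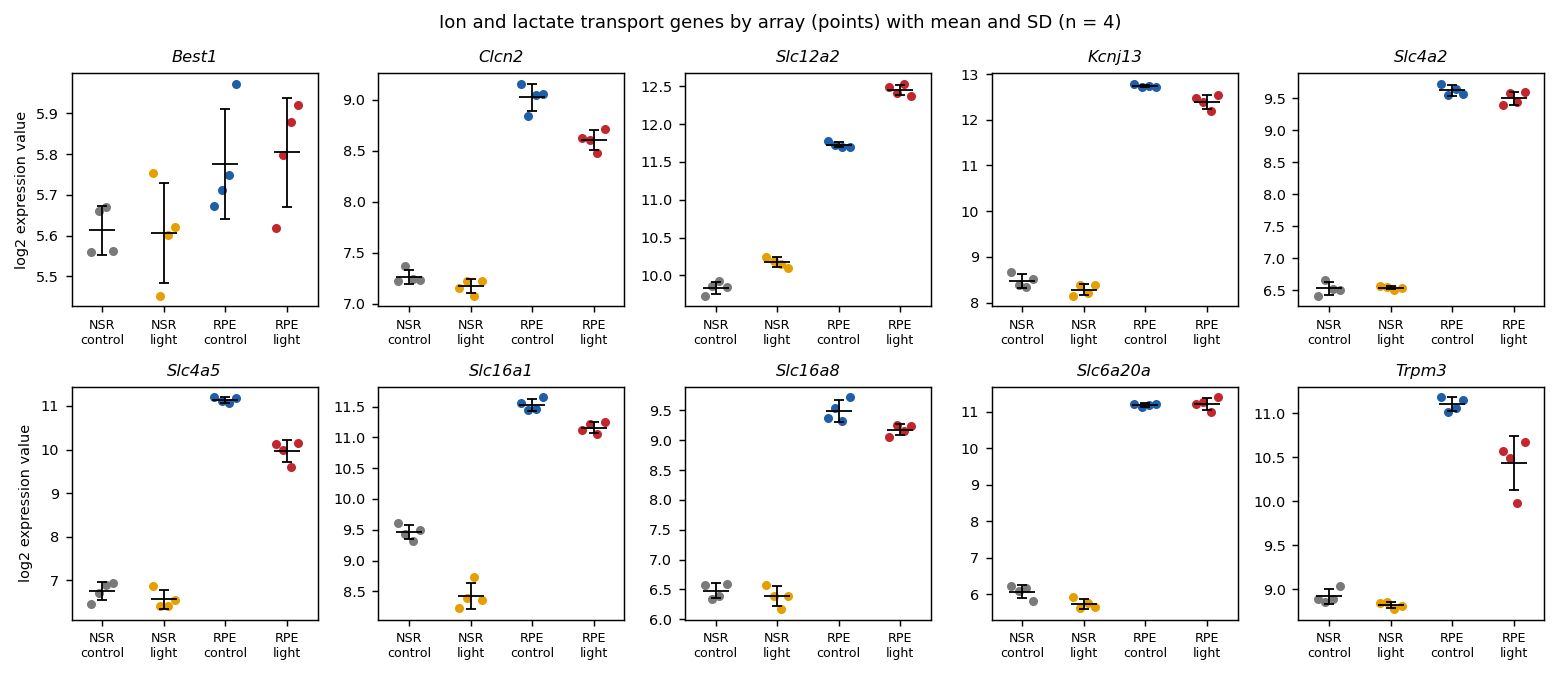
Log2 expression values of the 10 transport genes on each of the 16 arrays (points), with the mean and SD of each group (black, n = 4), in NSR control, NSR light, RPE control and RPE light. The vertical axes differ between panels and do not start at 0. Every gene except Best1 shows RPE arrays far above NSR arrays, and Slc4a5, Trpm3 and Clcn2 are lower in light-exposed than in control RPE while Slc12a2 is higher.

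The second comparison asked how light changed these genes in the RPE. Of the 10, 5 fell and 1 rose at an adjusted p under 0.05, where 8.53% of all genes were called lower, 9.08% higher and 17.6% in either direction. Slc4a5, Trpm3, Clcn2, Slc16a1 and Kcnj13 fell, and Slc12a2 rose. Slc16a8 missed the threshold, and Best1, Slc4a2 and Slc6a20a were not called. The median log2 change was -0.32, against -0.01 over all genes tested. The RPE markers, which include none of the 10, moved in the same direction: 13 of 20 fell and 1 rose, with a median of -0.32. Their summed linear level was 78241 to 81260 in control RPE and 57613 to 64289 in light-exposed RPE. Of 12 melanocyte markers, some of them shared with the RPE list, 8 fell and 0 rose (18611 to 20148 without and 13016 to 14911 with light). The part of either list in the falls given here was not tested. Control and light-exposed arrays did not overlap for 7 of the 10 genes, against 22.1% of all genes.

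The chloride genes went different ways. Slc12a2, which loads chloride into the cell, read 11.77, 11.73, 11.70 and 11.70 on the control RPE arrays. After light it read 12.48, 12.41, 12.53 and 12.37, with no overlap. It rose 1.65-fold (log2 0.73, SE 0.06, limma adjusted p = 4.99e-05), in all 4 arrays. RPE light 2, the array with the corneal signal, was at 12.41. The part of that signal in the rise was not tested. Without the 3 arrays that stood apart the change was 0.73 (adjusted p = 0.00565).

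Clcn2, a channel through which chloride can leave the cell, measured 9.15, 8.84, 9.05 and 9.06 on control RPE arrays and 8.62, 8.60, 8.48 and 8.71 after light. It fell 1.34-fold (log2 -0.42, SE 0.08, adjusted p = 0.00557). All 4 light-exposed arrays lay below all 4 controls, the closest being RPE control 2 at 8.84 and RPE light 4 at 8.71. Best1 gave a difference of 0.03 with a 95% interval from -0.17 to 0.23 (adjusted p = 0.893).

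Kcnj13 measured 12.79, 12.73, 12.73 and 12.71 on control RPE arrays and 12.48, 12.40, 12.18 and 12.53 after light. The control arrays lay close together, and all light-exposed arrays were lower. It fell 1.27-fold (log2 -0.34, SE 0.08, adjusted p = 0.0145). This call was lost after quantile normalization over the genes tested (adjusted p = 0.0567) and without the 3 arrays that stood apart (-0.38, adjusted p = 0.0941).

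The bicarbonate genes differed in their response. Slc4a5 measured 11.20, 11.11, 11.07 and 11.18 on control RPE arrays and 10.14, 9.99, 9.59 and 10.16 after light. It fell 2.25-fold (log2 -1.17, SE 0.12, adjusted p = 0.000131), the largest change of the 10 genes in the RPE, and ranked 87th from the lowest of all 19938 genes. The groups lay well apart, and RPE light 3 was the lowest array. Slc4a2 measured 9.73, 9.55, 9.65 and 9.56 on control RPE arrays and 9.39, 9.58, 9.44 and 9.59 after light. These groups overlapped, with a difference of -0.12 and a 95% interval from -0.28 to 0.04 (adjusted p = 0.325).

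Both lactate transporter genes were lower after light, 1 of them past the threshold. Slc16a1 measured 11.56, 11.44, 11.47 and 11.65 on control RPE arrays and 11.12, 11.21, 11.06 and 11.25 after light, with no overlap. It fell 1.29-fold (log2 -0.37, SE 0.07, adjusted p = 0.00524), and without the 3 arrays that stood apart the value was -0.41 (adjusted p = 0.0505). Slc16a8 had 9.06, 9.26, 9.16 and 9.24 in light-exposed RPE, all below the lowest control array at 9.32. Its difference was -0.31 with a 95% interval from -0.52 to -0.10 (adjusted p = 0.0512). It was called with the replicate number as a block (adjusted p = 0.0386), with all 16 arrays in the fit (0.0331), with arrays centred on their median (0.0479), without the dimmest 25% of genes (0.0405), with a trended and robust prior (0.0256) and without RPE control 3 (0.0351). It was not called under the other 14 alternatives, and without the 3 arrays that stood apart the value was -0.27 (adjusted p = 0.291).

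Trpm3 measured 11.19, 11.02, 11.06 and 11.16 on control RPE arrays and 10.58, 10.49, 9.98 and 10.68 after light. It fell 1.60-fold (log2 -0.67, SE 0.13, adjusted p = 0.00622), and every light-exposed array lay below every control. The spread was wider after light, with an SD of 0.31 against 0.08, since RPE light 3 stood below the rest. Slc6a20a, in contrast, stood at 11.21, 11.27, 11.01 and 11.41 in light-exposed RPE, around its control level, with a difference of 0.03 and a 95% interval from -0.16 to 0.22 (adjusted p = 0.860).

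Among the light-exposed RPE arrays, RPE light 3 was the lowest array for 6 of the 10 genes (Kcnj13, Slc4a5, Slc16a1, Slc6a20a, Clcn2 and Trpm3) and the highest for Slc12a2, and it was the lowest for 24.4% of all genes. RPE light 4 was the highest for 8, all but Slc16a8 and Slc12a2, and for 30.1% of all genes. Whether the 10 genes varied together was not tested. Rpe65, the isomerase of the visual cycle, had 12.42, 12.26, 11.99 and 12.42 on these arrays, and Lrat, its partner acyltransferase, 12.17, 12.12, 11.95 and 12.24. Without the 3 arrays that stood apart, Slc4a5, Trpm3 and Clcn2 fell (-1.28, -0.81 and -0.49, with adjusted p = 0.00565, 0.0389 and 0.0274), with 2056 genes called in place of 3510. The light-exposed RPE arrays in that fit were RPE light 3 and RPE light 4 alone. RPE light 3, the lowest for each of these genes, thus weighed more than in the fit of all RPE arrays.

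**Figure D2:**
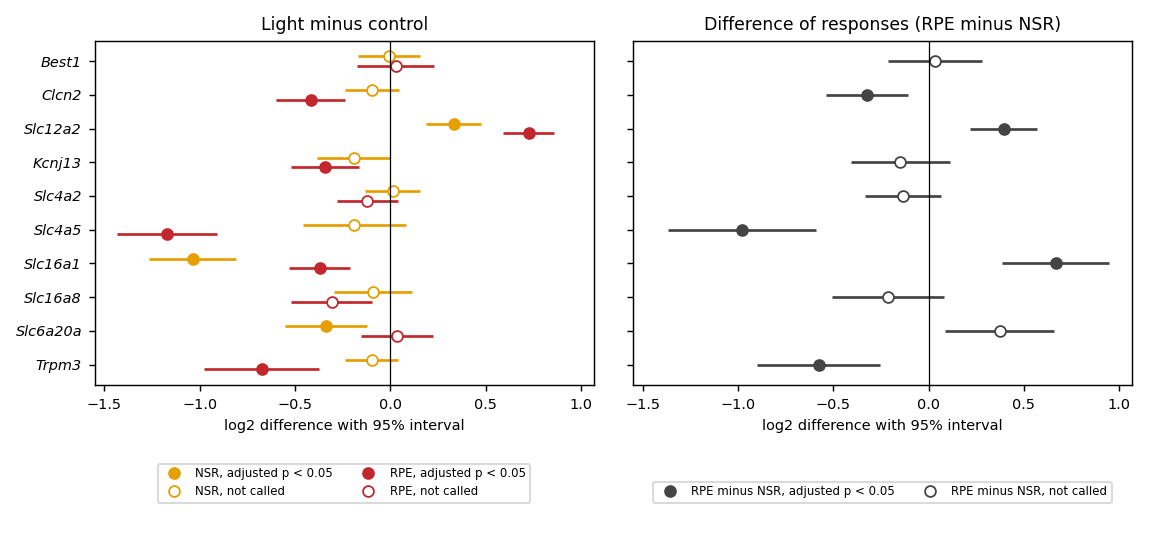
Log2 difference between light-exposed and control arrays (left) in NSR and RPE, and the RPE response minus the NSR response (right), for the 10 transport genes, each with its 95% interval. Filled points passed an adjusted p under 0.05 in limma. In the RPE 5 genes lie left of 0 and Slc12a2 right of it among the filled points; in the NSR Slc16a1 has the largest change.

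In the NSR light changed 3 of the 10 genes: Slc16a1 and Slc6a20a fell and Slc12a2 rose, where 15.1% of all genes were called, 6.24% lower and 8.87% higher. The median change of the 10 was -0.10, against -0.02 over all genes tested. Slc16a1 stood at 9.61, 9.43, 9.32 and 9.49 in control NSR and at 8.23, 8.39, 8.73 and 8.35 in light-exposed NSR. The groups lay well apart, and the gene fell 2.05-fold (log2 -1.04, SE 0.10, adjusted p = 2.85e-05), ranking 40th from the lowest of all genes. MCT1 is known in photoreceptors and in Müller glia, and markers of both cell types were lower too. Of 14 rod markers 13 fell and 0 rose (summed linear level 61626 to 63028 in control and 40120 to 46136 in light-exposed NSR), and of 10 Müller glia markers 6 fell and 2 rose (10863 to 11697 in control and 8076 to 8563 in light-exposed NSR). Their part in the fall of Slc16a1 was not tested.

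Slc12a2 stood at 9.73, 9.86, 9.92 and 9.85 in control NSR and at 10.25, 10.19, 10.16 and 10.09 in light-exposed NSR, with no overlap. It rose 1.26-fold (log2 0.33, SE 0.07, adjusted p = 0.0049), and so rose in both tissues. Slc6a20a stood at 6.22, 6.10, 6.17 and 5.83 in control NSR and at 5.93, 5.62, 5.76 and 5.65 in light-exposed NSR. These groups overlapped, since NSR control 4 lay below NSR light 1. The fall was 1.26-fold (log2 -0.34, limma adjusted p = 0.0366). Its call was lost when any of NSR control 1, 2 or 3 or NSR light 2, 3 or 4 was left out (adjusted p between 0.0677 and 0.103). The call was also lost after quantile normalization over all clusters (adjusted p = 0.064) and with all transcript clusters tested (adjusted p = 0.09).

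RPE markers were also read in the NSR, where 4 of 20 fell and 1 rose. Their summed linear level there was 5334 to 5702 in control and 4103 to 4438 in light-exposed arrays. Rpe65 was among the dimmest genes there, at 4.17 to 5.70 in control and 3.93 to 4.36 in light-exposed NSR. Their part in the NSR values of Slc6a20a was not tested. Arrays did not overlap for 3 of the 10 genes, against 20.7% of all genes; these were Slc16a1, Slc12a2 and Trpm3, which was lower on every light-exposed array without a call. For Kcnj13, Slc4a5, Slc16a8, Clcn2 and Trpm3 the NSR differences lay between -0.19 and -0.09 and none was called (adjusted p between 0.177 and 0.561). For Slc4a2 and Best1 they were 0.01 and -0.01 (adjusted p = 0.935 and 0.969).

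Whether the response differed between the tissues was tested as the RPE response minus the NSR response over all 16 arrays. It differed for 5 of the 10 genes, where 13.2% of all genes were called. Slc4a5 (log2 -0.98, SE 0.18, adjusted p = 0.00134) and Trpm3 (-0.58, SE 0.15, adjusted p = 0.0172) fell more in the RPE. Slc16a1 fell more in the NSR (0.67, SE 0.13, adjusted p = 0.00222). Slc12a2 rose more in the RPE (0.39, SE 0.08, adjusted p = 0.00364).

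Clcn2 was called as well (-0.32, adjusted p = 0.0447), but this call was lost under 18 of 27 alternatives, among them the mouse as a block (adjusted p = 0.0902). The call of Trpm3 was lost after quantile normalization over the genes tested (-0.46, adjusted p = 0.0596). For Kcnj13 the difference of the responses was -0.15 with a 95% interval from -0.41 to 0.11, so that a difference between the tissues was not shown. For Slc6a20a it was 0.37, with an interval from 0.09 to 0.66 (adjusted p = 0.0844).

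After light the RPE still held more of 9 of the 10 genes than the NSR, where 34.4% of all genes were called higher. The gap of Slc4a5 was 10.6-fold in light-exposed mice and 20.8-fold in controls, and that of Trpm3 3.06-fold and 4.57-fold. Slc16a1 went the other way, with 6.65-fold after light and 4.19-fold in controls. Slc6a20a had 44.7-fold and 34.5-fold, and Slc12a2 4.85-fold and 3.69-fold. Best1 was not called in light-exposed mice (0.20, adjusted p = 0.0507) but was under 8 of 19 alternatives. These changes of the gap are the same quantity as the difference of the responses, tested above.

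**Figure D3:**
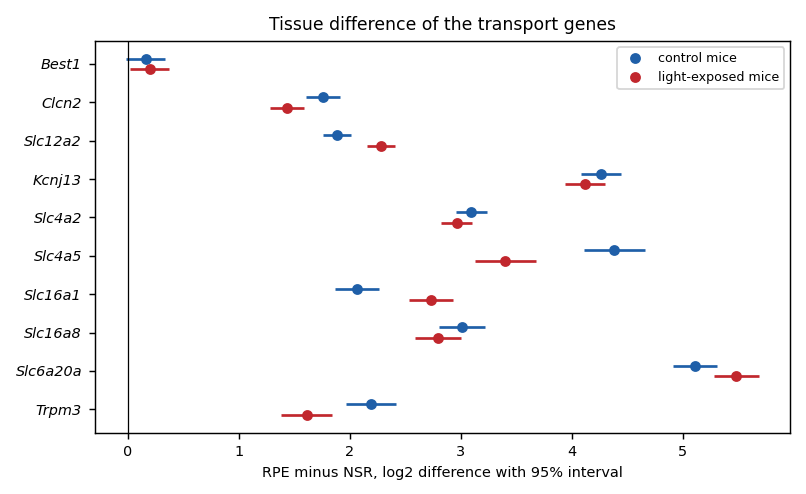
RPE minus NSR log2 difference of the 10 transport genes in control mice (blue) and light-exposed mice (red), each with its 95% interval from the fit of all 16 arrays. All points except those of Best1 lie above 1; Slc4a5 and Trpm3 have a smaller gap after light and Slc16a1 a larger one.

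Mir204, the microRNA gene inside Trpm3, fell with its host in the RPE. Its cluster measured 9.31, 9.20, 8.23 and 9.70 on control RPE arrays and 7.41, 7.18, 6.63 and 7.43 after light, with no overlap. It fell 3.86-fold (log2 -1.95, SE 0.29, limma adjusted p = 0.00124), against 1.60-fold for Trpm3. RPE light 3 was the lowest array for both. In the NSR Mir204 stood between 5.45 and 6.04 in control and 5.35 and 6.24 in light-exposed arrays (-0.08, adjusted p = 0.809). Its means there, 5.75 and 5.67, were just above 5.63, the value under which the dimmest 25% of genes lay. The response differed between the tissues by -1.87 (SE 0.37, adjusted p = 0.00227), and control RPE lay 10.3-fold above control NSR.

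Trpm1, a channel of retinal bipolar cells and melanocytes whose gene holds Mir211, was 3.50-fold lower in control RPE than in control NSR, while Trpm3 was higher there. Light gave it a difference of -0.33 in the RPE (adjusted p = 0.298) and 0.22 in the NSR (adjusted p = 0.0947). The RPE response minus the NSR response was -0.55 for Trpm1 (adjusted p = 0.110) and -0.58 for Trpm3, and no difference between the genes was tested. Mir211, whose mature 5p arm shares the seed printed above, gave a difference in the RPE with a 95% interval from -0.20 to 0.19 (adjusted p = 0.996). Whether these clusters read the mature microRNA or its longer precursor was not tested. Of the 9 genes in this list of TRPM channels and microRNAs 2 fell in the RPE, against 8.53% of all genes called lower. These were Mir204 and Trpm7 (-0.30, adjusted p = 0.0292, a call lost under 8 alternatives). In the NSR 0 of the 9 were called, against 15.1% of all genes, and 1 had an unadjusted p under 0.05 in limma.

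**Figure D4:**
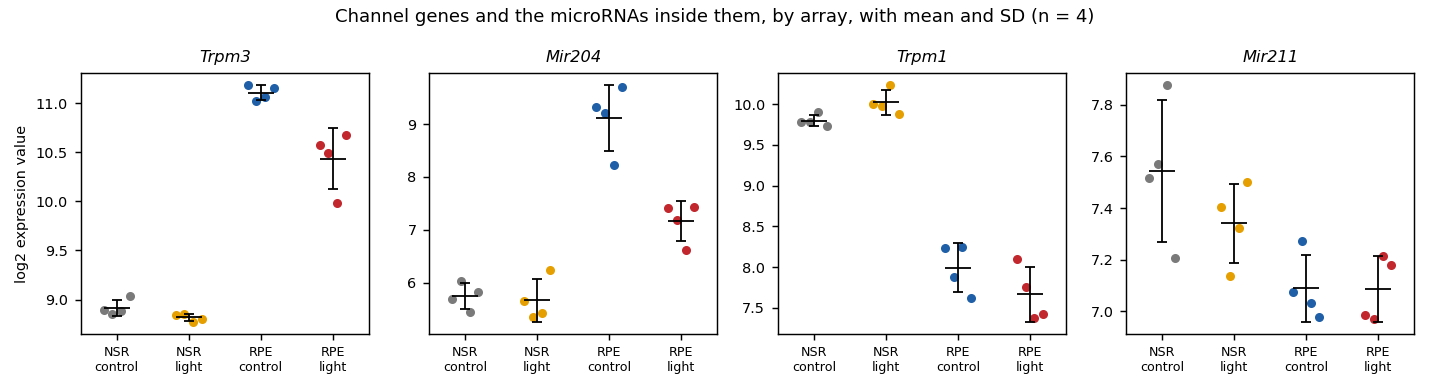
Log2 expression values of Trpm3, Mir204, Trpm1 and Mir211 on each array (points), with the mean and SD of each group (n = 4). Axes differ between panels and do not start at 0. Mir204 spans 8.23 to 9.70 in control RPE and 6.63 to 7.43 after light.

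Other genes of these transport pathways were counted from lists of related genes. Beside each list stand the shares of all genes, 9.08% called higher and 8.53% lower in the RPE. In the NSR these shares were 8.87% and 6.24%. Of 19 lactate and glucose transport genes 5 fell and 1 rose in the RPE, with a median of -0.01. The monocarboxylate transporter family genes Slc16a14, Slc16a4 and Slc16a6 fell 1.53-fold, 1.49-fold and 1.49-fold. Bsg encodes basigin, the chaperone that brings MCT1 and MCT3 to the membrane, and was singled out for that role after its values were seen. It measured 12.00, 12.00, 11.97 and 12.00 on control RPE arrays and 11.60, 11.57, 11.42 and 11.64 after light. It fell 1.35-fold (log2 -0.43, SE 0.06, adjusted p = 0.00115) and kept its call under all 20 alternatives run. In the NSR 2 of the 19 rose and 2 fell, with Slc16a6 down 1.75-fold, Slc2a3, a glucose transporter, up 1.34-fold and Emb, another chaperone of monocarboxylate transporters, up 1.27-fold, the last 2 losing their calls under 6 and 9 alternatives.

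Among 16 bicarbonate and proton exchange genes 1 fell and 1 rose in the RPE (median 0.00). Slc4a4, another sodium and bicarbonate cotransporter, measured 9.62, 9.55, 9.55 and 9.47 on control RPE arrays and 9.25, 9.08, 9.05 and 9.24 after light. It fell 1.32-fold (adjusted p = 0.00339), and its response differed from that of the NSR by -0.61 (adjusted p = 0.00106). Slc26a7, an anion exchanger, rose 1.31-fold in the RPE and fell 1.25-fold in the NSR, where 2 of 16 fell and 0 rose and the other was Slc9a5, a sodium and proton exchanger (1.28-fold). The fall of Slc26a7 in the NSR was lost under 7 alternatives. Its mean in light-exposed NSR, 5.39, was among the dimmest 25% of genes, so that the size of this fall is uncertain.

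Of 32 chloride channel and cotransporter genes 5 rose and 2 fell in the RPE (median 0.05), against 9.08% of all genes called higher and 8.53% lower. In the NSR 7 rose and 2 fell (median 0.00), against 8.87% of all genes called higher and 6.24% lower. The intracellular channel proteins Clic1 and Clic4 rose in both tissues, 2.74-fold and 2.09-fold in the RPE and 3.77-fold and 2.23-fold in the NSR. The summed linear level of the microglia and macrophage markers was higher after light without overlap in both tissues, at 3094 to 3870 against 2447 to 2940 in the RPE and 800 to 981 against 670 to 700 in the NSR. Of these 10 markers 2 rose and 1 fell in the RPE and 3 rose and 0 fell in the NSR, and their part in the rises of this list was not tested. Ano6, a scramblase and channel of the anoctamin family, rose 2.24-fold in the NSR and 1.47-fold in the RPE. Best3, a relative of Best1, fell 1.77-fold in the RPE, but its means in all 4 groups were among the dimmest 25% of genes, so that the size is uncertain.

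Potassium channel and sodium pump genes were called both ways in the RPE, with 4 of 21 higher and 2 lower, against 9.08% and 8.53% of all genes. The pump subunit gene Atp1b3 rose 1.56-fold and Fxyd3, a pump regulator, 1.62-fold. The potassium channel gene Kcnj8, known in pericytes, fell 1.52-fold, a call lost without the 3 arrays that stood apart (adjusted p = 0.0626). In the NSR 4 of 21 fell and 0 rose, with Kcnj14, Kcnj10 and Fxyd6 down 1.44-fold, 1.28-fold and 1.25-fold. Kcnj14 lost its call when all transcript clusters were tested (adjusted p = 0.0547) and Kcnj10 with all 16 arrays in the fit (adjusted p = 0.0689). Kcnj10 is the main potassium channel of Müller glia. It is itself among the 10 Müller glia markers counted above and among the 6 that fell.

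Of 18 amino acid and osmolyte carriers 6 fell and 4 rose in the RPE (median 0.03). Slc6a13, a GABA and taurine transporter, measured 11.55, 11.35, 11.26 and 11.39 on control RPE arrays and 9.91, 10.16, 9.66 and 10.21 after light. It fell 2.64-fold (log2 -1.40, SE 0.12, adjusted p = 6.09e-05), while Slc6a20a of the same family was not called. Slc6a15, a neutral amino acid transporter, fell 2.42-fold. Slc5a3, the myo-inositol carrier, fell 1.70-fold in the RPE and rose 1.74-fold in the NSR. Slc6a12, a betaine carrier, rose 1.54-fold and Slc38a3, a glutamine carrier, fell 1.51-fold in the NSR, where 3 of 18 rose and 3 fell. Of 7 water channel genes 0 were called in the RPE by limma, with 0 at an unadjusted p under 0.05, and Aqp1 fell 1.67-fold in the NSR.

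Transcription factors known in the RPE were called both ways. Of 12, 2 fell and 2 rose in the RPE (median -0.13). The 2 that fell, Mitf and Otx2, are also on the RPE marker list and among its 13 genes that fell. Mitf, the factor of melanocytes and RPE that binds the E-box letters searched above, measured 10.50, 10.35, 10.59 and 10.50 on control RPE arrays and 9.75, 9.73, 9.65 and 9.80 after light. It fell 1.68-fold (log2 -0.75, SE 0.07, adjusted p = 8.33e-05), with no overlap. Otx2 fell 1.21-fold (adjusted p = 0.0188, lost under 3 alternatives), and Tfec and Tfe3, relatives of Mitf, rose 1.38-fold and 1.33-fold, calls lost under 7 and 12 alternatives. The means of Tfec in all 4 groups were among the dimmest 25% of genes, so that the size of its rise is uncertain. In the NSR Crx and Otx2 fell 1.75-fold and 1.34-fold and Sox9 rose 1.29-fold, the last losing its call under 5 alternatives.

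**Figure D5:**
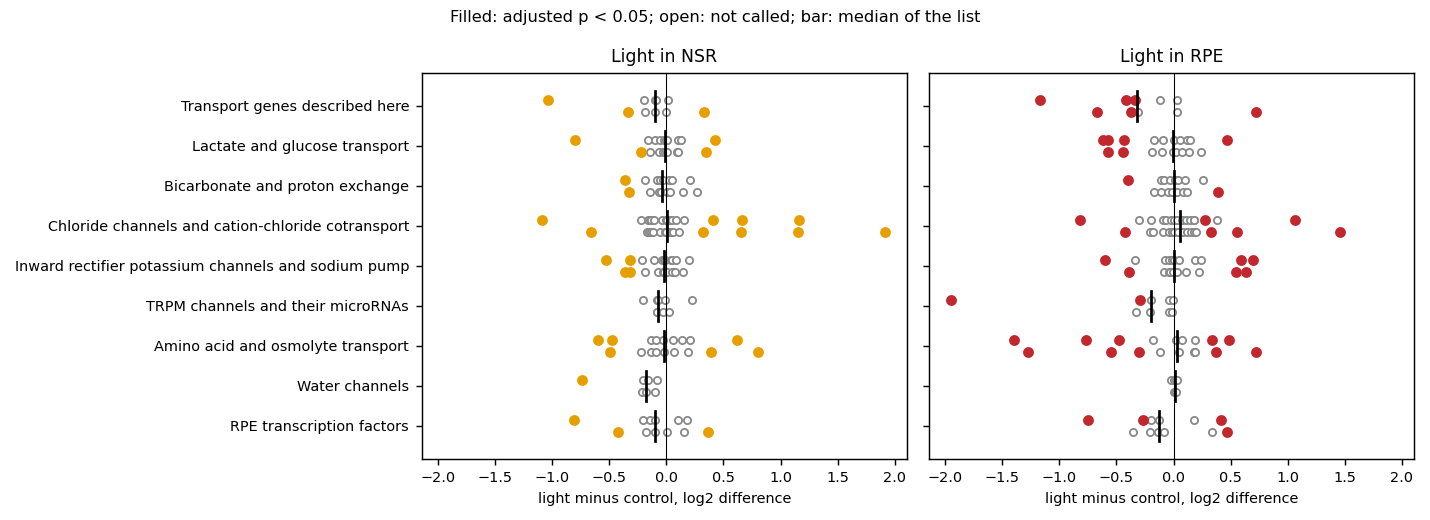
Log2 difference between light-exposed and control arrays for each gene of the 10 transport genes and of 8 lists of related genes, in NSR (left) and RPE (right). Filled points passed an adjusted p under 0.05, open points did not, and the black bar is the median of the list. The 10 transport genes have a median of -0.32 in the RPE, where the medians of the related lists lie between -0.19 and 0.05.

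The genes with the most similar profiles were found by the root mean square difference of the log2 values after each gene was centred on its own mean. Over all 16 arrays, where the tissue sets most of the profile, Trpm3 lay nearest to Cgrrf1 and Pdk2 (0.10 and 0.14), Clcn2 to Cryz and Cystm1 (0.11 and 0.11), and Kcnj13 to St3gal6 and Bdh2 (0.16 and 0.19). Slc12a2 was nearest to Mtmr2 and Cyb5r3, Slc16a1 to Apoe and Gulp1, Slc4a5 to Slc22a8 and Gip, Slc4a2 to Sft2d2 and Pmp22, Slc16a8 to Gpam and Dock5, Slc6a20a to Thbs1 and Slc16a9, and Best1 to Naaladl1 and Actbl2. Over the 8 RPE arrays alone, Kcnj13 lay nearest to Fbxo3 and Lrat (0.03 and 0.04), Trpm3 to Slc24a1 and Rlbp1 (0.06 and 0.07), Slc12a2 to Snrpa1 and Nedd4l (0.03 and 0.04), Slc4a5 to Fam13a and Spock1 (0.05 and 0.06), Clcn2 to Cryl1 and Lrp1 (0.03 and 0.04), and Slc16a1 to Pxk and Gria3 (0.04 and 0.04). Lrat and Rlbp1, the latter a retinaldehyde-binding protein, belong to the visual cycle. Whether such genes are more frequent among the nearest profiles than among all genes was not tested.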

How the data were processed

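Total RNA of NSR and RPE was hybridised to arrays of the type Affymetrix Mouse Gene 1.0 ST, with 1 array for each tissue of each mouse. The values the authors deposited are log2 expression of 35556 transcript clusters; the submitters' processing notes name RMA and Partek 6.6. The log2 scale was read from the values (2.20 to 13.84); the sources used here state neither annotation and filters nor any centring, and no detection measure was used. By GEO's platform annotation 21789 clusters carry 1 symbol, 1621 carry more and 12146 are unnamed here; gene identifiers linked 21698 to GRCm38.p6. The brightest single-symbol cluster stood for each of 19938 genes. Of 120 pairs of arrays 0 were identical. The number of arrays limits the precision.

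Analyses used R 4.3.3, limma 3.58.1 (lmFit, eBayes), Python 3.11.15, pandas 2.3.3 and matplotlib 3.10.9. Light was tested within each tissue on 8 arrays, and tissues and the difference of responses on 16 arrays with 4 group means. P-values were adjusted over all genes with Benjamini-Hochberg and called under 0.05. The fits were tested on simulated data.

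Named genes were the 10 transport genes, the 3 called genes of each related list with the largest change (the largest alone where none was called), the 2 nearest profiles, and defining markers. Mir211, Bsg, the NSR values of Mir204 and the RPE values of Trpm1, Otx2 and Ano6 are printed beyond this rule and were chosen after values were seen. Genes and lists were chosen with earlier results of these data known. NSR and RPE of 1 mouse share its identifier in the labels and so form animal pairs. Within pairs, correlations of deviations from group means ran from -0.011 to 0.053. Between light and control arrays of 1 tissue that share only a replicate number they ran from -0.017 to 0.066. These correlations alone therefore do not show the pairing. Alternatives were other scaling, filters, cluster handling, priors, array weights, a block and left-out arrays.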

Additional observations from a re-analysis of the deposited data

Results flagged for a closer look

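The response to light differed between RPE and NSR for 5 of the 10 transport genes by the test of the difference itself, as RPE response minus NSR response on the log2 scale. The values were -0.98 for Slc4a5, 0.67 for Slc16a1, 0.39 for Slc12a2, -0.58 for Trpm3 and -0.32 for Clcn2. Slc12a2 rose and Slc16a1 fell in both tissues, by different amounts. Among the companion genes the values were -1.87 for Mir204, -0.27 for Bsg and -0.61 for Slc4a4. Bsg lost this call under 13 of 27 alternatives.

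Clcn2 stood at 7.37 in NSR control 2 and between 7.22 and 7.24 in the other control NSR arrays, a gap wide for a group of 4. It was the only such array among 52 groups of 4 checked for these 10 genes, Mir204, Bsg and Slc4a4, where chance gives about 1 in 20.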

How the results depend on the processing

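Of 50 values, the 10 transport genes in 5 comparisons, 41 kept their side of the threshold under every alternative run. No called value changed direction. Values near 0 that were not called could change sign, as that of Best1 for light in the NSR did (-0.055 to 0.052). The count of genes called for light in the RPE was 2056 when the 3 RPE arrays that stood apart were left out together, against 3510, with fewer arrays in the fit. The count of transport genes whose response differed between tissues was 3 after quantile normalization over the genes tested, against 5, since Clcn2 and Trpm3 lost their calls (adjusted p = 0.119 and 0.0596); the cause was not tested. With the replicate number as a block, light called 3 transport genes in the NSR and 7 in the RPE, where Slc16a8 was added (-0.31). With the mouse as a block, tissues called 9 in control and 9 in light-exposed mice and the difference of responses 4, without Clcn2. The block changed no other call of these genes. Light and control mice share only a replicate number. Scaling over all clusters was added after seeing the data. Signal over background is unknown, which limits Best1, Best3 and Tfec, and also the low NSR values of Slc26a7, Rpe65 and Slc6a20a.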
